A study of Mus musculus with 18 samples.

Results

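Across 18 arrays of microdissected Brunner's glands, 68 of 17204 measured genes separated the genotypes and met limits of size and level. For each, every GLP-1R-/- mouse lay on one side of every wild-type mouse, whether or not the mice had received exendin-4. A gene was included if its 9 GLP-1R-/- arrays all lay below, or all above, its 9 wild-type arrays, if the means of the 2 genotypes were at least 0.4 apart on the log2 scale, and if its mean over the 18 arrays was at least 5. The genotype difference itself chose these genes: the 68 genes were selected on the deposited signals of all 18 arrays, so direction and size are given as a description without a test. Of the 68 genes, 40 were lower and 28 were higher in GLP-1R-/- glands.

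Brunner's glands lie beneath the duodenal mucosa and secrete mucus and bicarbonate into the gut. The receptor for glucagon-like peptide 1 (GLP-1R) is a peptide hormone receptor that couples to the stimulatory G protein and raises cyclic AMP, and exendin-4 is a peptide agonist of it. In a receptor knockout, a transcript can stand apart from wild type at all times, or it can stand apart after the agonist because it responds only where the receptor is present. Genes with a large genotype difference in each treatment are described first, then genes called after exendin-4 in wild-type mice. By the rule, all of them were separated in untreated mice too, and why any of them changed was not tested.

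Each array carried RNA from laser-captured glands of 1 male mouse, labelled as CD-1, an outbred stock. The 6 groups of 3 mice were GLP-1R-/- mice untreated, 6 h after exendin-4 and 18 h after exendin-4, and wild-type mice untreated, 6 h after exendin-4 and 18 h after exendin-4. The labels give no ages, no dose, no vehicle-injected controls and no breeding scheme, so the receptor and any other inherited or husbandry difference between GLP-1R-/- and wild-type mice cannot be told apart. Nor, within a genotype, can the agonist be told apart from injection or collection time.

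The values are log2 signals made with RMA, which corrects background, normalises arrays to one another and gives 1 value per gene. They were deposited under Ensembl mouse gene identifiers, and 0 of the 49997 rows of the reference gene table used here (GRCm38.p6) carried such an identifier. Gene names, functions, chromosomes and distances from the receptor gene were therefore not analysed here, and neither were the receptor transcript, the markers of Brunner's glands or those of neighbouring tissue. The 4 genes described in full are given by identifier, and the others by direction and by their rank in size of the genotype difference. Array medians lay between 5.88 and 6.11, and Pearson's r across genes was 0.945 to 0.995 for pairs of arrays. The GLP-1R-/- 6 h replicate 13 stood apart, with correlations of 0.945 to 0.966 to the other arrays, whose own lowest correlation was 0.970. Without it the rule found 102 genes, 49 lower and 53 higher, and all 68 genes were among them. That all 68 stayed was nearly fixed in advance, since leaving out an array can only ease the condition of no overlap. Arrays have no read depth. Precision is limited by how many arrays there were, and also by dim signals and by arrays that stand apart.

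The 68 genes that met the whole rule made up 0.395% of the 17204 genes on the arrays. The 40 lower genes were 0.233% and the 28 higher genes 0.163%. Without regard to size or level, the genotypes did not overlap for 86 genes, or 0.5% of all genes. Of the 18 left out, 8 had a difference under 0.4, 8 had a mean under 5 and 2 had both. The excess of lower genes depended on single arrays: it turned to 46 lower and 52 higher genes without wild-type 18 h replicate 10, as it did without replicate 13. Without any other single array the lower genes stayed in excess. All 68 genes were kept in both cases that turned, where the genes newly admitted were mostly higher.

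The differences spanned a wide range of sizes. The 40 lower genes had a median difference of -1.17 on the log2 scale, with 5 genes at least 4-fold lower in GLP-1R-/- glands, 18 at least 2-fold but under 4-fold, and 17 under 2-fold. The 28 higher genes had a median of 0.91, with 3 at least 4-fold higher, 9 at least 2-fold but under 4-fold, and 16 under 2-fold. Over the 11304 genes with a mean of at least 5, the median difference was 0.019 and its median size 0.106. A large mean difference did not by itself separate the genotypes. Among genes of sufficient level whose means differed at least 4-fold, 5 of the 14 lower ones and 3 of the 6 higher ones had no overlap. Between 2-fold and 4-fold, 18 of 40 lower genes and 9 of 45 higher genes had none.

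**Figure D1:**
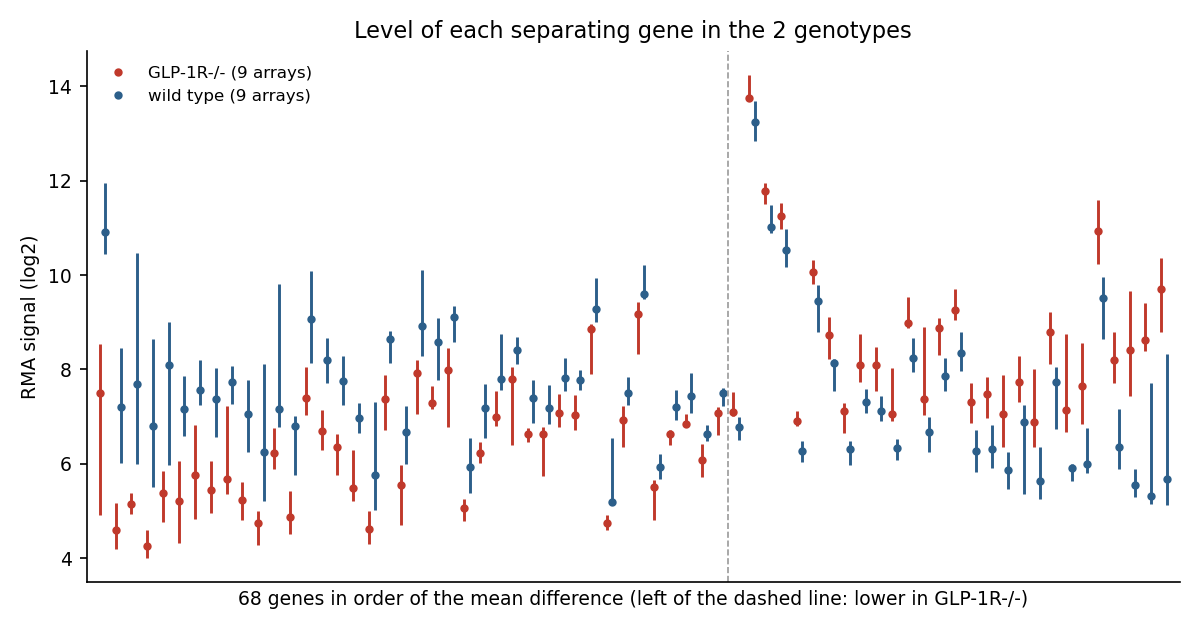
RMA signal (log2, vertical axis) of each of the 68 genes, ordered along the horizontal axis by the GLP-1R-/- minus wild-type mean difference. Points are medians and lines run from the lowest to the highest of 9 arrays, GLP-1R-/- in red and wild type in blue; the lines of a gene do not overlap, by the rule that chose it, and the 4 genes with a mean of 10 or more all lie right of the dashed line, among those higher in GLP-1R-/-.

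ENSMUSG00000049436 had the largest difference of the 68. In GLP-1R-/- mice its level was 7.62, 5.02 and 5.26 untreated, 5.22, 8.53 and 4.92 at 6 h, and 8.46, 8.10 and 7.50 at 18 h. In wild-type mice it was 10.5, 10.7 and 10.5 untreated, 10.7, 11.9 and 11.2 at 6 h, and 10.9, 11.1 and 11.3 at 18 h. The highest GLP-1R-/- array lay 1.92 below the lowest wild-type array, the widest gap of any of the 68 genes. The GLP-1R-/- mice were far from uniform: 4 lay between 4.92 and 5.26 and 5 between 7.50 and 8.53, untreated and 6 h mice fell in each range, and the 3 mice at 18 h were all in the upper one. The mean was 6.74 ± 1.59 in GLP-1R-/- and 10.97 ± 0.461 in wild-type mice (SD, n = 9 each), an 18.8-fold difference on the scale of the RMA signal.

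ENSMUSG00000091747 and ENSMUSG00000030703 had the 2 largest differences in the other direction. ENSMUSG00000091747 averaged 9.76 ± 0.545 in GLP-1R-/- mice and 6.07 ± 1.08 in wild-type mice (SD, n = 9 each), a difference of 3.69. Its GLP-1R-/- arrays lay at 10.4, 10.2 and 9.44 untreated, 9.23, 10.4 and 10.1 at 6 h, and 8.78, 9.66 and 9.70 at 18 h. Its wild-type arrays lay at 7.30, 5.32 and 5.13 untreated, 8.34, 5.31 and 5.69 at 6 h, and 6.34, 5.44 and 5.81 at 18 h. Here the wild-type mice were the uneven ones, with untreated replicate 1 and 6 h replicate 7 above the other 7.

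ENSMUSG00000030703 lay at 9.41, 8.78 and 8.62 in untreated GLP-1R-/- mice, 8.91, 8.56 and 8.97 at 6 h, and 8.40, 8.60 and 8.55 at 18 h. In wild-type mice it lay at 5.26, 7.72 and 5.24 untreated, 5.43, 5.87 and 5.24 at 6 h, and 5.77, 5.15 and 5.33 at 18 h. All but 1 of the wild-type arrays were below 5.9, and the exception, untreated replicate 2, was still 0.68 below the lowest GLP-1R-/- array. The means were 8.76 ± 0.305 in GLP-1R-/- mice and 5.67 ± 0.809 in wild-type mice (SD, n = 9 each), a difference of 3.09. For these 3 genes the genotype difference was large in each treatment. It was -4.60 untreated, -5.04 at 6 h and -3.05 at 18 h for ENSMUSG00000049436. It was 4.09, 3.45 and 3.52 for ENSMUSG00000091747, and 2.87, 3.30 and 3.11 for ENSMUSG00000030703, in the same order of time.

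**Figure D2:**
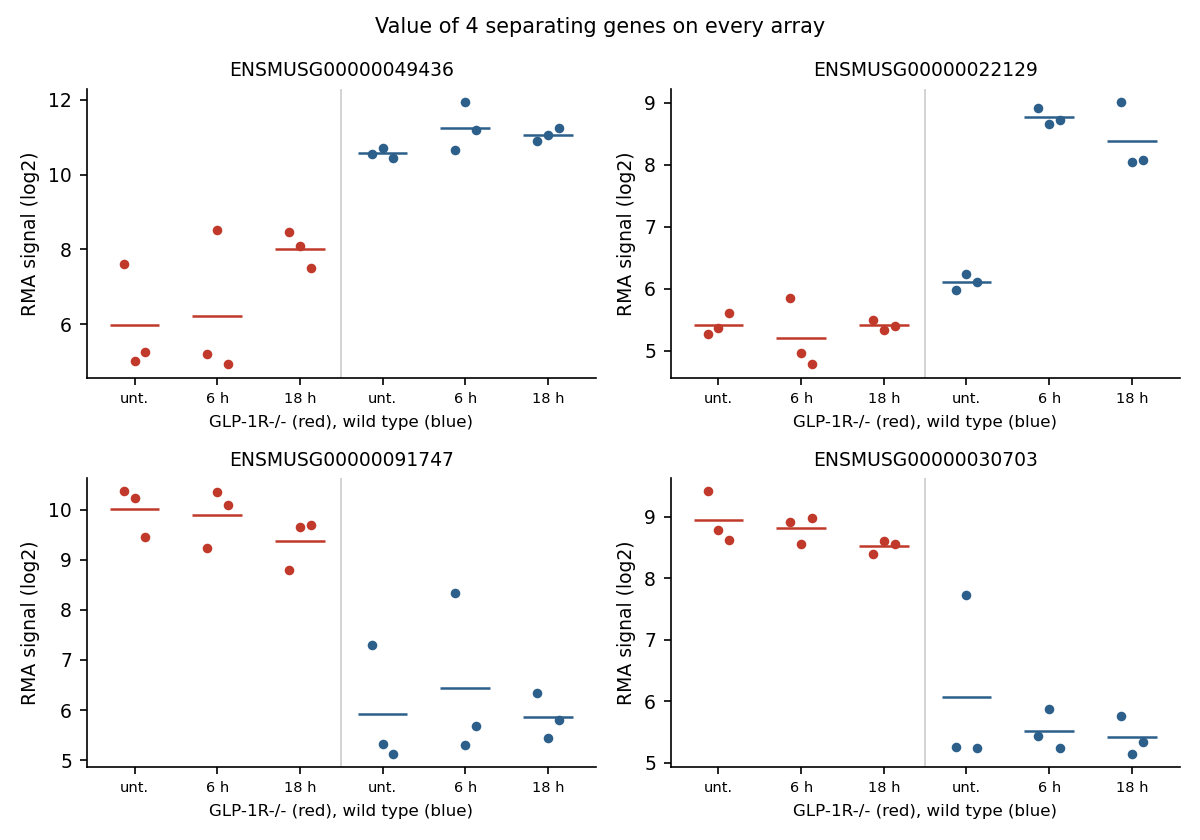
RMA signal (log2) of 4 genes on every array, GLP-1R-/- groups in red at the left of each panel and wild-type groups in blue at the right, each in the order untreated (unt.), 6 h and 18 h. Points are single mice and bars the means of 3; ENSMUSG00000022129 averages 6.11 in wild-type glands untreated, 8.76 at 6 h and 8.38 at 18 h, while its GLP-1R-/- groups lie between 5.20 and 5.42.

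The separating genes covered low to very high levels. Their mean over 18 arrays ran between 5.11 and 13.5 with a median of 7.04, against 7.07 for all genes with a mean of at least 5. The 4 genes with a mean of 10 or more were all higher in GLP-1R-/- glands. The brightest, at 13.8 in GLP-1R-/- and 13.2 in wild-type glands, differed by 0.60 and had a gap between the genotypes of only 0.0021. At the other end, 5 lower genes had a GLP-1R-/- mean below 4.79, the 30th percentile of all values, where RMA cannot tell a dim gene from an absent one and compresses differences. No higher gene had a wild-type mean below that level. In glands measured in bulk, fewer cells of a type and less RNA per cell cannot be told apart.

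Several genes lay close to the limits of the rule. The smallest differences inside were -0.44, 0.44 and -0.56, and the largest just outside were -0.39, -0.39 and -0.38. The dimmest genes inside had means of 5.11, 5.32 and 5.49, and the brightest outside 4.92, 4.83 and 4.79. Gaps between the genotypes began at 0.0021, 0.0090 and 0.0095 inside. Just outside, 3 genes whose genotypes overlapped had gaps of -0.0002, -0.0026 and -0.0027, with differences of 1.10, 0.83 and -2.19. The gap was under 0.1 for 31 of the 68 genes and at least 0.5 for 12.

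Spread within a genotype was set beside that of other genes. The SD over 9 arrays was larger in wild-type mice for 24 of the 40 lower genes and 12 of the 28 higher genes, against 44.6% of the genes with a mean of at least 5. This SD takes in untreated, 6 h and 18 h mice, so it includes any change with treatment and is not the spread among like mice. Replicate 13 moved these figures: without it they were 28 of 40, 18 of 28 and 68.7%. The rule used these same arrays, so the counts are descriptions.

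The genotype difference was next taken within each treatment, 3 GLP-1R-/- against 3 wild-type mice. Its size had a median of 0.85 over the 68 genes in untreated mice, 1.19 at 6 h and 0.97 at 18 h. The largest of the 3 came at 6 h for 40 genes, at 18 h for 15 and in untreated mice for 13. All 3 differences were at least 0.4 in size for 62 genes, and the smallest single one was 0.28. They stayed within 1.5 times of each other for 23 genes and within 2 times for 51. For 4 genes, all of them lower in GLP-1R-/- glands, the largest was more than 3 times the smallest.

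**Figure D3:**
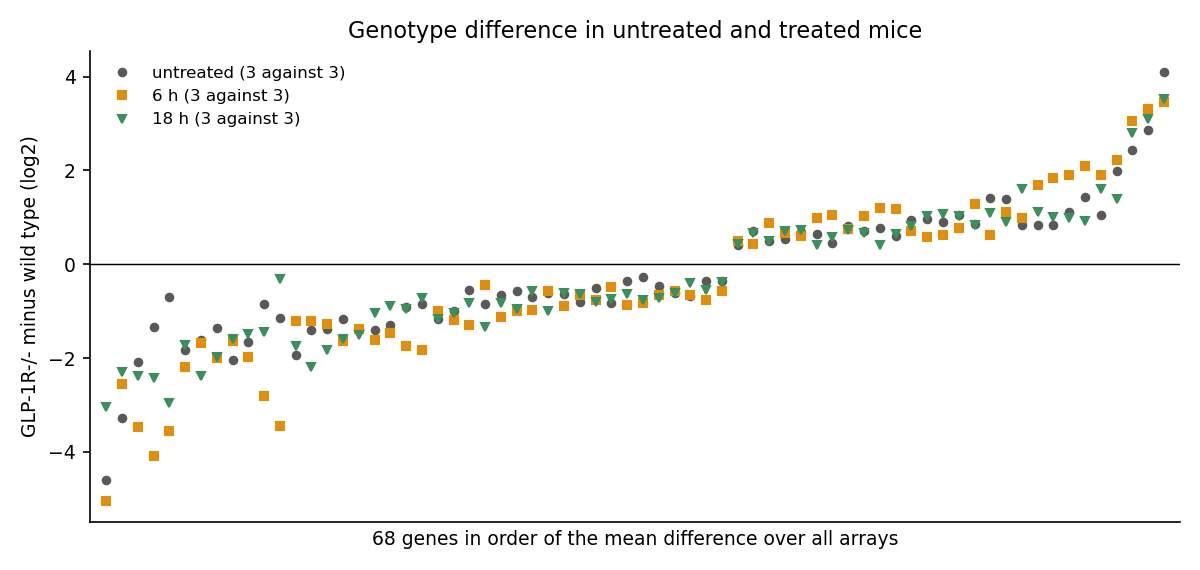
GLP-1R-/- minus wild-type difference of group means (log2, vertical axis, 3 mice against 3) for each of the 68 genes, ordered by the mean difference over all arrays. Circles are untreated mice, squares 6 h and triangles 18 h after exendin-4. The 3 differences stay within 2 times of each other for 51 genes. A few lower genes have squares far below their circles, as at rank 4 (-4.08 at 6 h and -1.33 untreated).

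The response to exendin-4 within a genotype was not itself a condition of the rule, although the treated arrays entered the rule. That response was tested with limma over 12775 genes, all 68 among them. In wild-type mice at 6 h, 7 of the 68 genes (10.3%) were called at an adjusted p under 0.05, against 3.39% of all genes tested. Of the 7, 6 rose, against 1.93% of all genes tested that did, and 1 fell, against 1.46%. All 7 were lower in GLP-1R-/- glands. A rise in treated wild-type mice enlarges the mean difference that the rule required of a lower gene, so these shares are descriptions and support nothing about the 68 genes as a group. In untreated mice, whose separation the rule also required, the 7 differed between genotypes by 0.54 to 1.93. The median change in wild-type mice at 6 h was 0.096 for the 68 genes and 0.022 for all tested.

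ENSMUSG00000022129, the lower gene of rank 5, was the only one of the 68 called at both times. In GLP-1R-/- mice it lay at 5.28, 5.37 and 5.61 untreated, 5.86, 4.96 and 4.78 at 6 h, and 5.49, 5.33 and 5.40 at 18 h. In wild-type mice it lay at 5.98, 6.23 and 6.12 untreated, 8.91, 8.66 and 8.72 at 6 h, and 9.01, 8.04 and 8.08 at 18 h. Every treated wild-type mouse was above every untreated one, and the GLP-1R-/- groups overlapped one another. In wild-type glands the 6 h mean stood 2.65 above the untreated one (limma adjusted p = 1.84e-05), and the 18 h mean 2.27 above it (limma adjusted p = 0.000521), each with an SE of 0.252. In GLP-1R-/- glands its change was -0.22 at 6 h and -0.0098 at 18 h, with limma adjusted p of 0.737 and 0.999. The genotype difference was thus -0.69 in untreated mice, -3.56 at 6 h and -2.97 at 18 h.

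The lower genes of rank 4, 11 and 12 had their highest wild-type level at 6 h and a lower one at 18 h. Rank 4 averaged 5.73 ± 0.241 untreated, 8.42 ± 0.270 at 6 h and 6.69 ± 0.381 at 18 h in wild-type mice (SD, n = 3 each), and its 3 GLP-1R-/- group means lay between 4.27 and 4.40, below the 30th percentile. It rose by 2.69 at 6 h (SE 0.206, limma adjusted p = 1.47e-06). Rank 11 rose by 2.34 (SE 0.179, limma adjusted p = 1.47e-06), to 7.67 ± 0.421 at 6 h, against 5.33 ± 0.103 in untreated wild-type mice (SD, n = 3 each). Its GLP-1R-/- group means were 4.48 untreated, 4.87 at 6 h and 4.76 at 18 h, the first and last below the 30th percentile. At 18 h the difference from untreated wild-type mice was 0.96 for rank 4 (limma adjusted p = 0.0724) and 0.87 for rank 11 (limma adjusted p = 0.0665).

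Rank 12 rose by 2.32 at 6 h in wild-type mice (SE 0.188, limma adjusted p = 2.57e-06), to 9.61 ± 0.301, against 7.28 ± 0.256 untreated (SD, n = 3 each). By 18 h it stood at 6.84 ± 0.0961 in wild-type and 6.53 ± 0.325 in GLP-1R-/- mice (SD, n = 3 each). The 18 h genotype difference of -0.31 was the smallest at that time among the 68 genes, and the gap over all arrays was 0.0090.

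The other 3 changed by less. Rank 24 rose by 0.84 (SE 0.159, limma adjusted p = 0.007) and rank 26 by 0.69 (SE 0.163, limma adjusted p = 0.0259). Rank 13 was the 1 that fell, its log2 change being -0.94 (SE 0.162, limma adjusted p = 0.00351), to 5.86 ± 0.0832 at 6 h, against 6.80 ± 0.221 in untreated wild-type mice (SD, n = 3 each). Its wild-type 6 h level came nearer to that of GLP-1R-/- mice, whose group means were 4.65 to 5.13, without reaching it. The GLP-1R-/- mean of 4.65, at 6 h, lay below the 30th percentile.

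**Figure D4:**
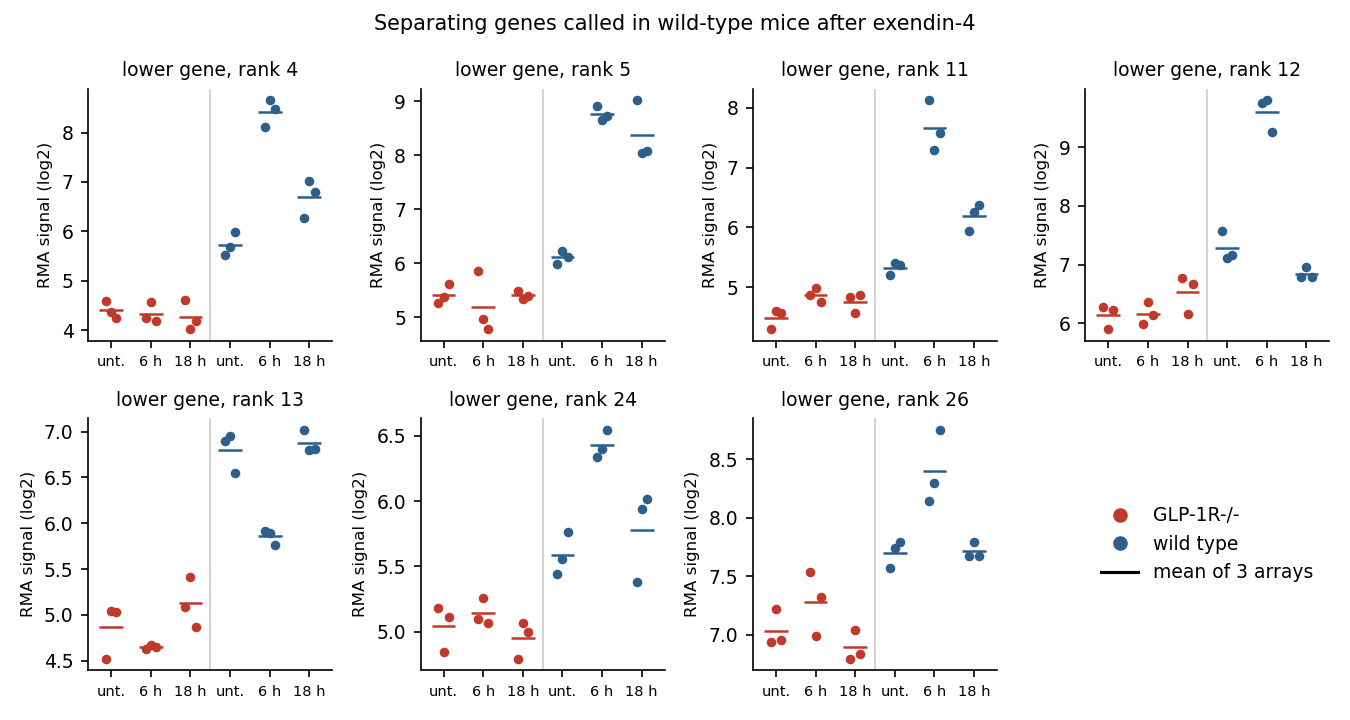
RMA signal (log2) on every array of the 7 genes that limma called 6 h after exendin-4 in wild type, given by rank of the genotype difference among the lower genes, with GLP-1R-/- groups in red at the left and wild-type groups in blue at the right (unt., untreated). Points are single mice and bars means of 3; in 6 panels the wild-type 6 h mice stand above the untreated ones, and at rank 13 they stand below, at a mean of 5.86 against 6.80.

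At 18 h in wild-type mice 1 of the 68 genes (1.47%) was called, ENSMUSG00000022129, against 0.196% of all genes tested. That count was 3 without wild-type 18 h replicate 10, 3 without GLP-1R-/- 6 h replicate 13, and 2 without wild-type 6 h replicate 7 or replicate 8. The matching shares of all genes tested are not given, so these shifts are not read as a result. At either time after exendin-4, limma called 0 of the 68 in GLP-1R-/- mice, as it called 0% of all genes tested. At an unadjusted p under 0.05 there were 4 of the 68 genes at each time, against 8.13% of genes tested at 6 h and 5.14% at 18 h. The largest change in GLP-1R-/- mice was that of ENSMUSG00000049436 at 18 h, 2.05 (SE 0.741, limma adjusted p = 0.853), where the untreated mice of that genotype ran between 5.02 and 7.62.

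**Figure D5:**
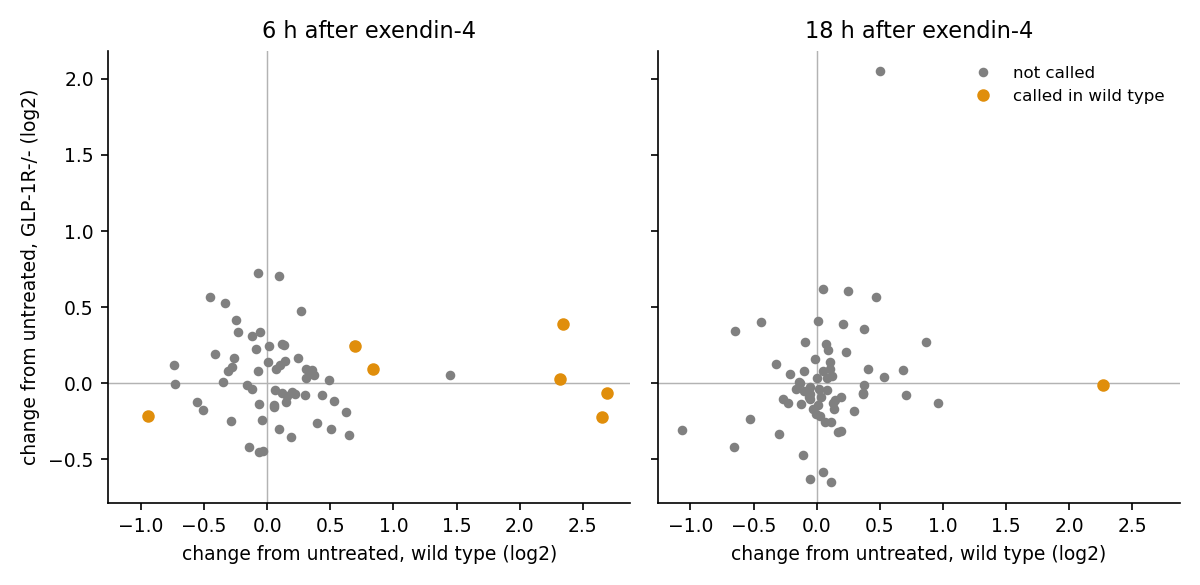
Change from untreated mice (log2) of the 68 genes at 6 h (left) and 18 h (right), wild type on the horizontal and GLP-1R-/- on the vertical axis, each point a difference of 2 means of 3 mice. Orange points are genes that limma called in wild type, 7 on the left and 1 on the right; they spread along the horizontal axis, and the single high grey point at 18 h is ENSMUSG00000049436 at 2.05.

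A difference in response between the genotypes was tested as the GLP-1R-/- change minus the wild-type change. At 6 h limma called 4 of the 68 genes (5.88%), against 0.376% of all genes tested, and all 4 had the more negative change in GLP-1R-/- mice, against 0.235% of all genes tested. A wild-type rise at 6 h favours both a place among the lower genes and a negative value here, so neither this share nor the common sign is read as a result. The 4 were ENSMUSG00000022129, at -2.87 (SE 0.357, limma adjusted p = 0.00118), rank 4, at -2.75 (SE 0.291, limma adjusted p = 0.000264), rank 11, at -1.95 (SE 0.253, limma adjusted p = 0.00136), and rank 12, at -2.30 (SE 0.266, limma adjusted p = 0.00063). GLP-1R-/- levels of rank 4 and 11 lay near or below the 30th percentile, where RMA compresses differences, so a change there could be missed. For rank 13, 24 and 26 the values were 0.72 (limma adjusted p = 0.229), -0.74 (limma adjusted p = 0.206) and -0.45 (limma adjusted p = 0.511), so a difference in response between genotypes was not shown for them. At 18 h only ENSMUSG00000022129 of the 68 was called, at -2.28 (SE 0.357, limma adjusted p = 0.031), against 0.0235% of all genes tested, with the same limit. That call was lost when any 1 of the untreated or 18 h GLP-1R-/- mice, or any 1 of the untreated or 6 h wild-type mice, was left out, with limma adjusted p of 0.054 to 0.156 and differences of -2.35 to -2.18.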

How the data were processed

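The deposited table holds log2 RMA signals of 17204 genes on 18 arrays; the authors used RMA (version not given), per the submitters' processing notes. Array model, probe set definition and genome build were not given in the sources used here. The rule for the separating genes was applied to these values unchanged. Treatment contrasts were fitted with limma 3.58.1 in R 4.3.3, with 1 mean per group over all 18 arrays and eBayes. The 12775 genes with at least 3 arrays above 4.79, the 30th percentile of all values, entered the fit, and p-values are two-sided with Benjamini-Hochberg adjustment over them. Rule and fit were tested on simulated data. For the rule the planted differences were far larger than the simulated noise. That run checks the code, and not how the rule treats genes near its limits.

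The rule and the gene lists were chosen with earlier results of these data known. The naming rule took 10 genes per direction and all called genes; without gene names it was reduced, after values were seen, to 2 identifiers per direction: the largest difference, and the most treatment calls or, with none, the second largest. The labels number each array once and name no batch.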

Additional observations from a re-analysis of the deposited data

Results flagged for a closer look

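ENSMUSG00000022129 was singled out because its response to exendin-4 differed between the genotypes by -2.87 at 6 h and by -2.28 at 18 h on the log2 scale (GLP-1R-/- change minus wild-type change, limma adjusted p = 0.00118 and 0.031). In all, 4 of the 68 genes (5.88%) were called for such a difference at 6 h, against 0.376% of all genes tested. At 18 h it was 1 (1.47%), against 0.0235%. The rule favours such calls among lower genes, so these shares are not read as a result. The 18 h call was lost under 12 of 23 alternatives, with limma adjusted p up to 0.156.

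ENSMUSG00000030703 had 1 wild-type mouse, untreated replicate 2, at 7.72, far from the next highest of the 9 at 5.87; its distance to that array exceeded Dixon's 95% value for 9 samples. The same comparison over both genotypes of the 68 genes gave 15 such groups of 136, of which 8 were GLP-1R-/- 6 h replicate 13. In unselected, independent groups chance gives about 1 in 20; these groups share arrays and their extremes entered the rule, so that share is no yardstick for the count.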

How the results depend on the processing

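The number of separating genes was 60 to 78 under other scalings and limits and 71 to 102 with 1 array left out, with 67 or 68 of the 68 genes kept in each case of an omitted array. Leaving out an array can only ease the condition of no overlap. That keeping was therefore nearly fixed in advance and is no measure of stability. Centring each array on its median gave 71 genes, 45 lower and 26 higher, and kept 59 of the 68; quantile normalisation gave 78, 51 lower and 27 higher, and kept 60. The 4 identified genes met the rule under every alternative run, although only for centring and quantile normalisation was this not largely fixed in advance. In wild-type mice at 6 h, 6 to 8 of the 68 genes were called with 1 array left out and 7 to 10 otherwise. At 18 h there were 1 to 3 with 1 array left out and 4 with array weights, where replicate 13 weighed 0.0841. In GLP-1R-/- mice 0 of the 68 were called under every alternative at both times. The interaction called 4 at 6 h with any array left out and up to 6 otherwise. At 18 h it called 0 to 1 with 1 array left out. The shares of all genes called under these alternatives are not given, so shifts in the counts are not read as a result about the 68 genes. The wild-type changes of ENSMUSG00000022129 were called under all 23 alternatives, with a largest adjusted p of 0.000295 at 6 h and 0.0463 at 18 h. The cause of the shifts was not tested. Counts on chromosome 17 were not run. No paired analysis was possible because the labels share no replicate number between groups.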

Other observations

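After the mean of each group was subtracted, Pearson's r across the 18 arrays ran between -0.86 and 0.85 over the 2278 pairs of the 68 genes, with a median of 0.0029. It was over 0.8 for 6 pairs and under -0.8 for 12. Without GLP-1R-/- 6 h replicate 13 these counts were 1 and 6. All pairs share the same 18 arrays, and these values are descriptions without a test.

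The GLP-1R-/- mouse nearest to the wild-type range was 18 h replicate 16 for 21 of the 68 genes and 6 h replicate 13 for 13. The wild-type mouse nearest to the GLP-1R-/- range was untreated replicate 1 for 14. These extremes entered the rule and the matching counts over all genes are not given, so the counts are descriptions.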
